A study of Mus musculus with 4 samples.

Results

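Adult thymospheres are spheres of cells grown from the thymus of 5 to 6 week old C57Bl6/N mice. Their expression profile was described from the 2 samples titled as adult thymospheres, out of 4 samples in the series, the other 2 being spheres from embryonic thymus that were not used here. No allele or treatment other than the culture itself is named in the labels. Digests of whole thymus were kept in ultra low attachment plates, to which cells do not stick, in a medium with B27 supplement, hydrocortisone, insulin, EGF and bFGF, with fresh medium on day 5. Spheres were caught on filters and lysed on day 7, and 25 ng of total RNA per sample was labelled and hybridised to a 1-colour Agilent array, so each sample is 1 array. The labels describe the spheres as colonies of thymic epithelial stem cells. The design text speaks of biological and of technical replicates without saying which kind these 2 arrays are, so the spread between them may be technical.

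Thymic epithelial cells form the stroma in which T cells mature. Their identity rests on the transcription factor gene Foxn1, and their cortical and medullary types express keratins of simple and of stratified epithelia. The thymus also holds fibroblasts of the capsule and of the tissue around vessels, which make collagens, matrix proteins and chemokines, besides endothelium, macrophages, dendritic cells and developing T cells. A sphere culture started from a digest can hold any of these, and RNA of a whole sphere cannot tell fewer cells of a type apart from less RNA per cell.

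Among the 40 brightest named genes of adult thymospheres were those for metallothioneins (Mt1 and Mt2), matrix proteins (Mgp and Sparc) and ferritins (Fth1 and Ftl1). A protease inhibitor gene (Timp1) and ribosomal protein genes were there too. Glrx2, Kctd14, Med16, Exosc2 and Milr1, of none of these classes, ranked 4 to 8. In 17 of the 40 genes, Mt1 and Sparc among them, the brightest and dimmest probes lay over 3 log2 units apart. Of 21 marker lists of cell types, those of fibroblasts and mesenchyme and of adventitial fibroblasts had the highest median percentiles of signal among all named genes, 92.7 and 92.2. Keratin and junction genes of epithelia followed at 84.2, and markers of thymic epithelium stood at 46.3. Signals are given on a log2 scale relative to the 75th percentile of each array's processed intensity, so 0 is the level under which 75% of an array's spots lie. The brightness of a probe depends on the probe as well as on its transcript. Ranks here therefore order signals, not numbers of transcripts, and no probe's level measures 1 gene against another.

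Mt1 and Mt2, which lie close to each other on chromosome 8, code for small cysteine-rich proteins that bind zinc and copper, and they ranked 1 and 3 of 20453 named genes. Their transcription is known to be induced by metals through metal response elements and by glucocorticoids. Because both were at the top of the profile, their promoters are shown, 250 bases before to 30 bases after the start on the plus strand, from RefSeq on build GRCm38.p6. Capitals mark matches to the core of the metal response element, searched as TGCACNC or TGCGCNC on both strands. Mt1 lies at chr8:94178839-94179118 and Mt2 at chr8:94172368-94172647.
Mt1: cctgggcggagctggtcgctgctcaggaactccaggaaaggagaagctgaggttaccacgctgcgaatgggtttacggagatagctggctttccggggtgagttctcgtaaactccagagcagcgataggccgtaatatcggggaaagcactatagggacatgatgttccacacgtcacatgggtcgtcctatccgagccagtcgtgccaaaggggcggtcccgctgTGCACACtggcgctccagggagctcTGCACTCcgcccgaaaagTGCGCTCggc
Mt2: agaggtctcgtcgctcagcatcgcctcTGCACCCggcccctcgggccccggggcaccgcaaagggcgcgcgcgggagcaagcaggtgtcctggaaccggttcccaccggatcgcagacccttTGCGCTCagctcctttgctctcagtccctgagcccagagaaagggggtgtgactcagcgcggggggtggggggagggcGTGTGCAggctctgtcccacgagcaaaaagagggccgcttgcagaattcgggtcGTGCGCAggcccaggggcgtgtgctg

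The Mt1 promoter held 3 matches, the first at bases 228 to 234 and the last at 271 to 277 of the stretch. The Mt2 promoter held 4, of which 2 (bases 201 to 207 and 255 to 261) lay on the minus strand. Of 32851 promoters of the same 280 bases in the RefSeq table, 24.1% held at least 1 match and 1.73% held at least 3. A match is a description of letters and not evidence of a bound factor.

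On the arrays, Mt1 read 10.13 on array 1 and 10.23 on array 2, a mean of 10.18 ± 0.07 (SD, n = 2), and Mt2 read 10.10 and 10.09. The arrays thus differed by 0.10 or less for both genes. The brightest probe stands for Mt1, and a second Mt1 probe had a mean of 1.89, while Mt2 had 1 probe.

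Both arrays held 59305 spots outside the controls, for 55681 probes. The 75th percentile of the processed intensity was 132.04 on array 1 and 66.006 on array 2. On array 1, 42460 spots (71.6%) were well above background by the scanner software's flag, and on array 2, 29410 (49.6%). Array 2 had 2756 spots flagged as outliers, against 185 on array 1. These were left out, and 98.5% of those on array 2 were well above background. No spot was saturated. Probes for olfactory, vomeronasal and taste receptors, mostly restricted to sensory cells, were well above background in 770 of 1504 cases (51.2%) on array 1 and in 349 of 1410 (24.8%) on array 2. A stricter level was therefore set beside the flag, -0.20, under which 95% of 1297 sensory receptor genes stayed.

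Of 53176 probes with a value on both arrays, 24206 were well above background on both, 45.5%. Judged on array 1 without regard to array 2, 37025 were, these 24206 among them. Of 20453 named genes, 12322 (60.2%) were well above background on both arrays and 7314 (35.8%) had a mean above the sensory receptor level. These shares are the background for the counts of list members given further on.

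The arrays agreed more closely for the brighter probes than for the dimmer ones, though not step by step. Across all 53176 probes Pearson's r was 0.925 and Spearman's rho 0.885, with a median absolute difference of 0.65 and 73.5% of probes within 2-fold. Across the 24206 probes well above background on both, r was 0.962, the median absolute difference 0.38, and 91.7% were within 2-fold. Split into 5 equal bins by mean signal, 99.1% of the brightest bin were within 2-fold, 97.4% and 91.3% of the next, 83.7% of the second dimmest and 87.1% of the dimmest. The median absolute difference was 0.35 in the brightest bin and 0.31 in the next. These correlations run across probes that share arrays and labelling, and are a description. Spots of 1 probe repeated 10 times on an array (202 such probes) varied with a median SD of 0.13 on array 1 and 0.18 on array 2, while the same probes differed between arrays by a median of 0.30. Of the 200 brightest genes of each array, 180 were shared, and of the 1000 brightest, 927.

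**Figure D1:**
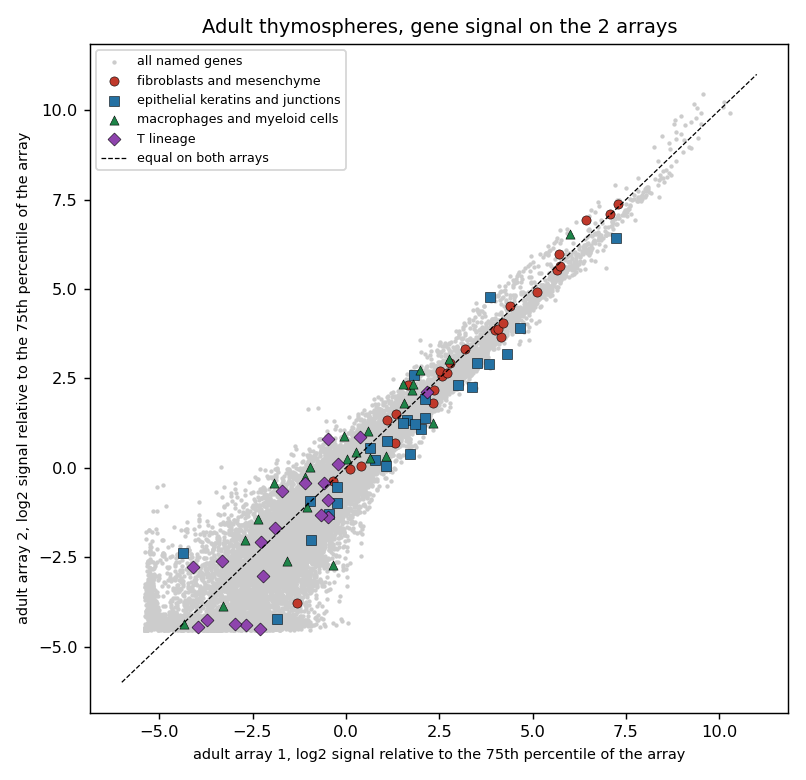
Log2 signal of each named gene on adult array 1 (horizontal axis) and adult array 2 (vertical axis), both relative to the array's 75th percentile, with 4 marker lists in colour and the dashed line where both arrays are equal. The cloud is narrow for bright genes and wide for dim ones, and most macrophage markers (triangles) lie above the line and most epithelial markers (squares) below it.

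Among the 40 brightest named genes, genes of iron and metal storage, of the matrix and of the ribosome recurred. Iron and metal storage was represented by Mt1, Mt2 and the subunits of ferritin, the cell's iron store: Fth1 (heavy chain) read 9.50 and 9.60, and Ftl1 (light chain) 9.06 and 9.16 on arrays 1 and 2. The list of antioxidant and iron storage genes, with 25 members, carried 4.34% and 4.71% of the summed signal of all named genes on the 2 arrays. Of these members 24 were well above background on both arrays, 96%, and 22 stood above the sensory receptor level.

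Matrix proteins were next. Mgp, matrix Gla protein, an inhibitor of calcification made by smooth muscle, cartilage and fibroblasts, read 10.27 and 9.92, a mean of 10.10 ± 0.25 (SD, n = 2), and ranked second. Sparc, a collagen-binding matricellular protein, read 9.44 and 9.21, although its dimmest probe had a mean of -1.54. Timp1, an inhibitor of matrix metalloproteases, read 9.19 and 8.96. All 3 were slightly brighter on array 1. Of the 36 genes of the matrix list with a value, 35 were well above background on both arrays, and the median percentile was 96.0. Lgals1, the galactose-binding protein galectin-1, read 7.83 and 7.74.

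Ribosomal proteins were the most numerous of these. Of the list's 86 members with a value, 82 were in the brightest 10% of named genes, 65 were among the 200 brightest and 12 among the 40 brightest. They made up 0.42% of named genes and carried 15.6% of the summed signal on array 1 and 13.1% on array 2. The 12 in the top 40 ran from 8.27 to 9.02 on array 1 and from 7.90 to 8.83 on array 2, and every one of these was brighter on array 1 with this scaling, though with arrays centred on their medians 80 of the 82 ribosomal genes well above background were brighter on array 2. Rpl41, the brightest, read 9.02 and 8.83, and Rps14 8.83 and 8.58. The 4 members outside the brightest 10% were Rpl10l, Rpl7l1, Rpl39l and Rpl3l, all genes named for their likeness to a ribosomal protein. Rpl3l, a form known from muscle, was not well above background on either array (-5.21 and -4.36), nor was Rpl39l (-5.16 and -3.85).

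Further genes of the top 40 were Tpt1, Ppia and Actb. Tpt1, a translationally controlled protein of growing cells, read 9.23 and 8.93, Ppia, the prolyl isomerase cyclophilin A, 8.71 and 8.18, and Actb, cytoplasmic actin, 8.50 and 8.30. Actg1, the other cytoplasmic actin, ranked 48 and read 8.17 and 7.67 on its brightest probe, with its dimmest at 3.16. All 32 genes of the actin cytoskeleton list were well above background on both arrays, with a median percentile of 97.2.

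A further set of genes in the top 40 had probes that differed widely. Of the 40 genes, 24 had more than 1 probe with a value, and in 17 of these the brightest and dimmest probes were over 3 log2 units apart, by 3.36 to 14.03. The median gap was 8.80 among the top 40, 3.55 among the 112 genes of the top 200 with several probes, and 1.79 among all 5317 genes with several probes. Apart from Mt1, Sparc and Rpl23, the named genes with gaps over 6 were Glrx2, Kctd14, Med16, Milr1, Zfp628, Elk1, Ppm1k, Slc10a1, Ttc38, Pbld1, Fam177a2 and Ndor1. Slc10a1, the bile acid transporter of liver cells, read 8.81 and 9.72 on its brightest probe, and its other probe had a mean of -4.77. Elk1, an ETS transcription factor, read 8.97 and 9.82, with another probe at -1.96. For Milr1, a receptor of mast cells, the values were 9.36 and 9.77, with other probes at 7.13 and 0.91.

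On the same scaling these genes had another array pattern. Of the 17 genes with gaps over 3, 15 were brighter on array 2, whereas the 12 ribosomal genes were all brighter on array 1. Among the 200 brightest genes, 25 of the 60 with probes over 3 apart were brighter on array 2, against 2 of the 52 whose probes lay within 3 and 19 of the 88 with 1 probe. Which of a gene's probes measures its transcript was not tested. With the mean of all probes standing for a gene, 23 of the 40 genes stayed in the top 40, and with the dimmest probe 19, so ranks in the top 40 depend on the probe that stands for a gene. Exosc2, a subunit of the RNA exosome, had 1 probe (9.50 and 9.92) and no second one to compare.

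**Figure D2:**
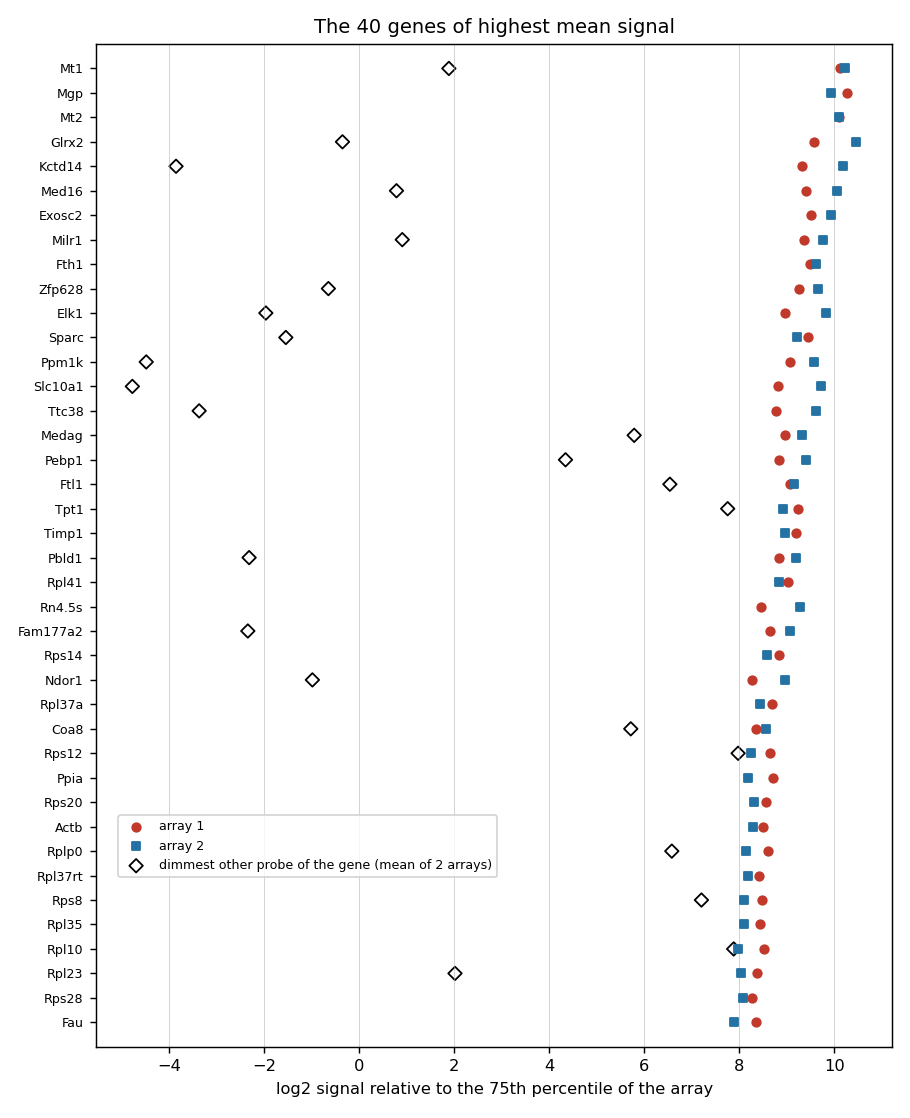
Log2 signal relative to the array's 75th percentile for the 40 named genes of highest mean signal, on array 1 (circles) and array 2 (squares), with the mean of the gene's dimmest other probe where it has several (diamonds). The arrays lie within 0.91 (Slc10a1) of each other for each gene, and the diamonds of genes such as Slc10a1 (-4.77) and Ppm1k (-4.48) lie far to the left.

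The 200 brightest genes comprised 65 ribosomal protein genes (32.5%), 9 of the actin cytoskeleton, 8 of the matrix, 6 lysosomal genes, and 4 each of antioxidant and iron storage, glycolysis and oxidative phosphorylation. None of the T lineage, endothelium, smooth muscle, adipocyte or granulocyte markers was among them. The best ranks in these lists were, in that order, 2288, 924, 752, 477 and 246 of 20453 named genes. Each of these lists had only 13 to 20 genes with a value. Having none in the top 200 therefore does not show that a cell type was absent. By annotated type, 189 of the 200 brightest genes were protein coding, 9 transcribed pseudogenes and 2 ribosomal RNA genes. Lineage markers in the top 200 were Col1a2, Dcn and Fn1 of fibroblasts, Fn1 and Mfap5 of adventitial fibroblasts, Krt18 of epithelia, Ctsl of thymic epithelium, Itgam of macrophages, Siglech of dendritic cells, Pdpn of lymphatic endothelium and Spp1 of bone. A total of 86 genes (43%) were on none of the lists.

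Energy metabolism and protein turnover were bright throughout. All 38 genes of oxidative phosphorylation were well above background on both arrays (median percentile 97.8), led by Cox8a, a subunit of cytochrome c oxidase, at 7.60 and 7.35. All 16 glycolytic genes were too (median percentile 97.2), with Gapdh at 7.92 and 7.60 and Ldha, lactate dehydrogenase, at 6.58 and 6.16. The same held for all 20 translation factors (97.8) and all 24 lysosomal genes (97.0). Cd63, a membrane protein of lysosomes and exosomes, read 7.83 and 7.55, and Ctsd, a lysosomal protease, 6.82 and 6.94. Chaperones, 22 of 22, had a median percentile of 96.5, with Hspa8, the constitutive heat shock protein, at 7.12 and 7.01. The dimmest probes of Gapdh, Ldha, Ctsd and Hspa8 had means of 3.07, 1.75, 3.01 and 2.51.

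Fibroblast markers were detected almost without exception. Of 27 with a value, 26 were well above background on both arrays and 25 (92.6%) stood above the sensory receptor level, where 35.8% of all named genes did. Col1a2, a chain of type I collagen, read 7.28 and 7.37, and Dcn, the collagen-binding proteoglycan decorin, 7.07 and 7.09. Fn1, fibronectin, read 6.42 and 6.92. Between the arrays these 3 genes differed by 0.50 or less. Col1a1 and Col3a1, chains of type I and type III collagen, read 5.66 and 5.53, and 5.11 and 4.92. Lum, the proteoglycan lumican, read 4.14 and 3.64. Pdgfra, a receptor that defines mesenchymal cells, read 1.10 and 1.35, at percentile 82.1. No gene of this list had probes over 3 units apart. With the dimmest probe standing for each gene, 25 of the 27 were well above background on both arrays and the median percentile was 94.9.

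The 1 marker not well above background on both arrays was Tcf21, a mesenchymal transcription factor, at -1.32 and -3.78. Of the 27 genes, 17 were in the brightest 10% of all named genes. Of the 22 members of the collagen list, 20 were well above background on both arrays, 15 above the sensory receptor level, with a median percentile of 89.98. Beside the fibrillar chains, Col4a2 of basement membranes read 5.02 and 5.03.

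Adventitial fibroblasts, the cells around vessels and in capsules that express Pi16, Dpp4 and Cd34, were represented by part of their markers. Of 14 members 12 were well above background on both arrays and 10 stood above the sensory receptor level. Mfap5, a protein of microfibrils, read 6.74 and 6.37, and Ly6a, the surface protein Sca-1, 4.76 and 3.80. Cd34, a surface sialomucin, read 3.21 and 2.93 on its brighter probe, with the other probe at -1.56. Pi16, a peptidase inhibitor, read 0.72 and 1.28. Dpp4, a surface peptidase, was well above background only on array 1 (-2.43 and -3.87).

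Epithelial genes formed a second set. Of 27 keratin and junction genes, 24 were well above background on both arrays and 20 (74.1%) stood above the sensory receptor level. Krt18, the type I keratin of simple epithelia, read 7.24 and 6.43, and its partner Krt8 4.66 and 3.91. Krt5, the keratin of basal and medullary thymic epithelium, read 3.83 and 2.89 on its brighter probe and had another at 0.15. Its partner Krt14 read 1.70 and 0.38, and Krt17 4.31 and 3.17. All of these keratins were brighter on array 1. Cdh1, the adhesion protein E-cadherin, read 1.63 and 1.33. Pkp3, a protein of desmosomes, ran the other way, at 3.86 and 4.78. Trp63, the transcription factor of basal epithelia, did so too, at 1.83 and 2.58, with another probe at -1.69. The 7 members below the sensory receptor level were Jup, a protein of junctions, which was not well above background on either array (-4.37 and -2.38), Elf3 and Ocln, which passed only on array 1, and Evpl, Esrp1, Esrp2 and Grhl2, which were well above background on both arrays. Esrp1 and Esrp2, splicing regulators of epithelia, read -0.23 and -0.54, and -0.95 and -0.94, and Grhl2, a transcription factor of epithelia, -0.45 and -1.3.

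Markers specific to thymic epithelium were dim or uneven. Of 17 with a value, 10 were well above background on both arrays (58.8%, against 60.2% of all named genes) and 6 stood above the sensory receptor level (35.3%, against 35.8%). Foxn1 was well above background only on array 1 (-2.23 and -3.23), as was Aire, the regulator of medullary cells (-1.65 and -2.36). Epcam, the surface protein by which these cells are sorted, read 1.29 and -0.01, and Plet1, a marker of their progenitors, 0.55 and -0.71, both brighter on array 1. The list's bright members were Ctsl, cathepsin L, a protease that cortical thymic epithelium and many other cells use, at 7.49 and 7.37, and Eya1, a transcriptional cofactor of pharyngeal pouch development, at 3.88 and 4.67.

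Some markers of thymic epithelium were lost to a flag. The spots of Psmb11, the proteasome subunit of cortical cells, and of Ccl25, a chemokine for thymocytes, were called outliers on array 2. With flagged spots kept, Psmb11 read 0.47 and 1.41, and both Ccl25 probes were likewise well above background on both arrays, the brighter of them at 1.88 and 2.57. Of the genes on all lists, 16 had no value for this reason, each flagged on array 2 and none on array 1. The median percentile of the thymic epithelium list was 50.4 with flagged spots kept. Measured against the label, the spheres had epithelial keratins, a low Foxn1 signal on 1 array, and fibroblast markers above most named genes on both.

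**Figure D3:**
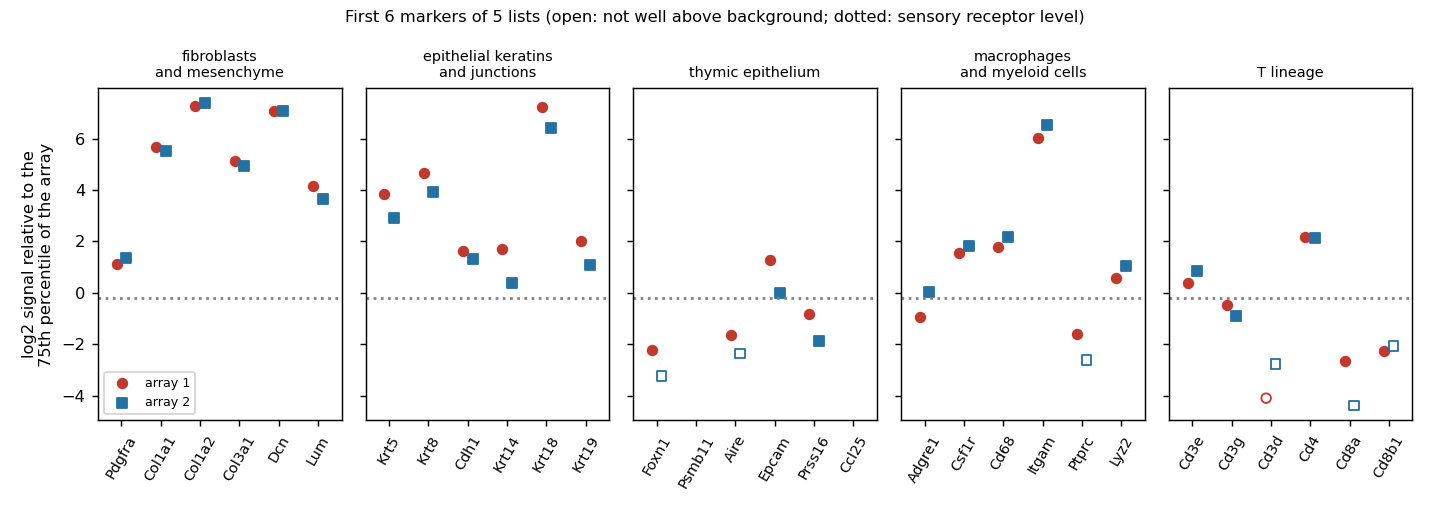
Log2 signal relative to the array's 75th percentile for the first 6 markers of 5 lists on array 1 (circles) and array 2 (squares); open symbols were not well above background, and the dotted line is the sensory receptor level of -0.20. All fibroblast and epithelial markers of the first 2 lists lie above the line on both arrays, Foxn1 and Aire lie below it, and Psmb11 and Ccl25 have no symbol because their spots on array 2 were flagged.

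Macrophage markers had the highest median percentile of the blood cell lists, 72.5. Of 24 with a value, 20 were well above background on both arrays (83.3%) and 14 (58.3%) stood above the sensory receptor level. Lyz1, lysozyme, read 2.75 and 3.04, Fcer1g, the signalling chain of Fc receptors, 1.99 and 2.72, and Cd68, a lysosomal protein of macrophages, 1.78 and 2.17. These 3 were brighter on array 2. Csf1r, the receptor for the growth factor of macrophages, read 1.54 and 1.81 with another probe at -1.51, and Adgre1, known as F4/80, -0.96 and 0.03. Itgam, the integrin chain CD11b, read 6.00 and 6.53 on its brightest probe, but its dimmest probe had a mean of -2.68. Ptprc, the leukocyte antigen CD45, was well above background only on array 1 (-1.59 and -2.61). With the dimmest probe standing for each gene the median percentile was 62.6.

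Granulocyte, dendritic and lymphocyte markers were detected in shares near or below that of all named genes (60.2%). Of 16 granulocyte and mast cell markers, 10 were well above background on both arrays (62.5%). Csf3r, the receptor of granulocyte colony-stimulating factor, read 5.42 and 6.21, S100a8, a calcium-binding protein of neutrophils, 2.01 and 1.93, and Mpo, the peroxidase of neutrophil granules, did not pass the flag on either array. Of 12 dendritic cell markers, 6 were well above background on both (50%). Siglech of plasmacytoid dendritic cells read 6.16 and 6.86, with another probe at -2.72, while Itgax, the integrin chain CD11c, was not well above background on either array and Flt3 and Zbtb46 were so only on array 1.

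The T lineage list, which marks the main cell of the thymus, stood below the shares of all named genes. Of 20 genes 11 were well above background on both arrays (55%, against 60.2% of named genes) and 4 stood above the sensory receptor level (20%, against 35.8%). Cd3e, a chain of the T cell receptor complex, read 0.38 and 0.85, Cd3g -0.48 and -0.89, and Cd3d was not well above background on either array (-4.10 and -2.77). Cd4 read 2.16 and 2.11 on its brighter probe and its other probe had a mean of -2.61. Of 11 B lineage genes 5 were well above background on both (45.5%). Ms4a1, a surface protein that defines B cells, was not on either array, and Blnk, an adaptor of the B cell receptor that other blood cells share, read 2.17 and 2.02.

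Vessel and mural cell markers were detected at lower percentiles than those of fibroblasts. Of 16 endothelial genes, 12 were well above background on both arrays (75%, against 60.2% of all named genes). Above the sensory receptor level stood 6 (37.5%), near the 35.8% of all named genes. Pecam1 and Cdh5, adhesion proteins that define endothelium, read -0.47 and -1.14, and -1.39 and -0.73. Kdr, a receptor of vascular endothelial growth factor, read 3.44 and 3.89, with another probe at -4.06, and Egfl7, a secreted protein of vessels, 2.37 and 2.33. Of 5 lymphatic genes, only Pdpn, podoplanin, was well above background on both arrays, a gene that fibroblasts and epithelia also express. Pdpn read 6.35 and 6.17 on its brighter probe, and its other probe had a mean of 1.92. Prox1, the regulator of lymphatic identity, was not well above background on either array. Among smooth muscle and pericyte genes, 9 of 13 were well above background on both arrays (69.2%). Tagln, an actin-binding protein, read 3.37 and 2.99 and Acta2, smooth muscle actin, 2.76 and 2.43, while Myh11, the heavy chain that defines smooth muscle, was so only on array 1.

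**Figure D4:**
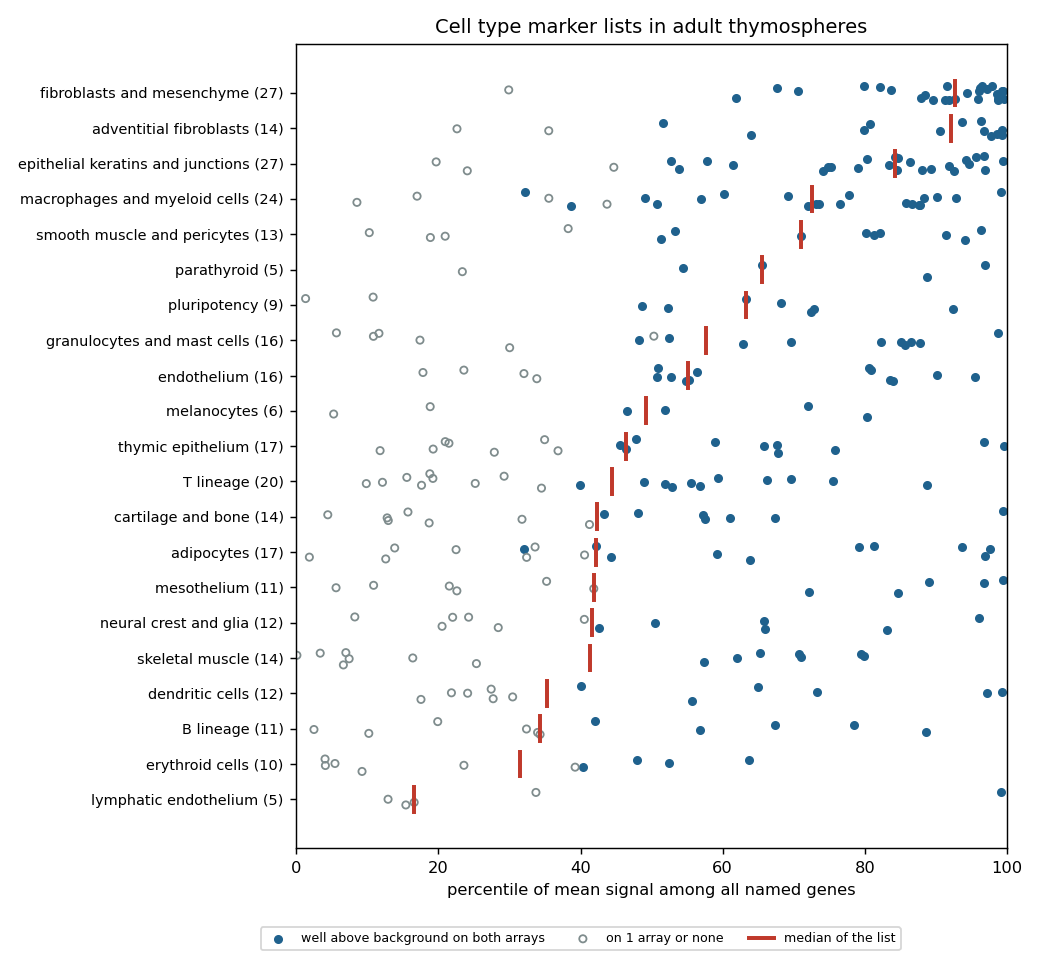
Percentile of mean signal among all named genes (horizontal axis) for each member of 21 marker lists, ordered by the list's median (red bar), with filled points well above background on both arrays and open points on 1 array or none; the number of genes with a value is in brackets. Fibroblast lists lie at the top with medians of 92.7 and 92.2, and lymphatic endothelium at the bottom with 16.6.

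The lists of adipocytes, cartilage and bone, neural crest and glia, and skeletal muscle were detected in shares below that of all named genes (60.2%). Among 17 adipocyte genes, 10 were well above background on both arrays: Cebpd, a transcription factor, read 5.03 and 4.55, Lpl, lipoprotein lipase, 4.32 and 4.39, and Adipoq, the hormone adiponectin, 0.15 and -0.60. Among 14 genes of cartilage and bone, 7 were, with Spp1, osteopontin, at 7.15 and 6.95, while Col2a1 of cartilage was not well above background on either array. Among 12 genes of neural crest and glia, 6 were. Nes, an intermediate filament of progenitors, read 1.28 and 1.40, and Sox10, the regulator of neural crest, was well above background only on array 1. Of 14 skeletal muscle genes, 7 were, and Myod1, Myog and Ckm were not on either array.

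Parathyroid and mesothelial genes were small lists with distinct members. Pth, parathyroid hormone, read 4.87 and 3.83, at percentile 97.0, and Chga, chromogranin A of endocrine granules, 2.44 and 1.81. Gcm2, the regulator of parathyroid identity, read -0.79 and -0.86, and Casr, the calcium receptor, was well above background only on array 1. All 4 parathyroid genes that were well above background on both arrays were brighter on array 1. Msln, mesothelin, read 2.75 and 1.59 and Wt1, a transcription factor of mesothelium, 0.64 and 0.08, while Lrrn4 was not well above background on either.

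Of 10 erythroid genes none stood above the sensory receptor level, and the globin gene Hbb-b1 was not well above background on either array. The 6 melanocyte genes had a median percentile of 49.2, with Mitf, also active in other cells, at 0.89 and 1.18 and Tyrp1 not well above background. Among 9 pluripotency genes 7 were well above background on both arrays (77.8%, against 60.2% of all named genes). Above the sensory receptor level stood 4 (44.4%, against 35.8%). Pou5f1 read -1.38 and -1.02, Klf4 0.55 and 0.20, and Sox2 was not well above background on either array (-5.27 and -4.47). Nanog read 2.00 and 3.58 on its brightest probe, a difference between arrays of 1.59, with another probe at -2.67.

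Genes for secreted factors were detected in shares above that of all named genes, at middling median percentiles. Of 25 chemokine genes, 20 were well above background on both arrays (80%, against 60.2% of all named genes). Above the sensory receptor level stood 13 (52%, against 35.8%), and the list's median percentile was 64.6. Ccl2 and Ccl8, which attract monocytes, read 5.99 and 5.79, and 5.38 and 5.14. Cxcl5, which attracts neutrophils, read 4.89 and 3.58, a wider gap between arrays. Of 48 cytokine and growth factor genes, 40 were well above background on both (83.3%), with a median percentile of 73.9. Mif, the macrophage migration inhibitory factor, read 6.95 and 6.62, Angptl4, an inhibitor of lipoprotein lipase, 4.28 and 4.65, and Il33, an alarm cytokine of stroma, 4.25 and 3.94. Il6, the cytokine of the acute phase, read 3.1 and 2.34. Acute phase and hormone genes outside the lists, picked after their values were seen, were Lcn2, the iron-carrier binding lipocalin, at 8.37 and 7.56, Saa3, a serum amyloid of inflamed tissue, at 6.67 and 6.85, and Cck, the peptide cholecystokinin, at 7.47 and 7.21.

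Most matrix proteases, their inhibitors and complement genes were detected, and prostaglandin enzymes less completely. Of 27 matrix proteases and inhibitors, 26 were well above background on both arrays with a median percentile of 91.8. Pcolce, an enhancer of collagen processing, read 7.15 and 6.68 and Serpinf1, the angiogenesis inhibitor PEDF, 6.39 and 6.02. Of 17 complement genes 15 were, with Serping1, the C1 inhibitor, at 5.05 and 5.18 and C3, the central component, at 4.44 and 4.58. Of 12 genes of prostaglandin synthesis 8 were (66.7%), with a median percentile of 54.3. The brightest were Ptges, which makes prostaglandin E, at 3.59 and 3.73, and Ptgis, which makes prostacyclin, at 3.38 and 3.27. Another Ptges probe had a mean of 0.45.

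Antigen presentation genes of both classes were detected. Of 15 genes of MHC class I and peptide loading, 14 were well above background on both arrays with a median percentile of 93.6: B2m, the light chain, read 8.0 and 7.58 and H2-D1, a heavy chain, 5.76 and 5.28. Of 10 class II genes 8 were, with a median percentile of 64.6. H2-Ab1, a class II chain, read 3.87 and 2.79, H2-Eb1 2.77 and 1.70, and Cd74, the invariant chain, 2.33 and 1.25, each about 1.08 higher on array 1. Of 20 interferon-induced genes 18 were well above background on both arrays, with Bst2, the antiviral tetherin, at 4.6 and 4.4 and Isg15, the ubiquitin-like modifier, at 4.31 and 3.83 on its brighter probe.

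Genes that respond to the factors in the medium were read from 2 lists. Of 16 insulin and glucocorticoid response genes, 15 were well above background on both arrays (median percentile 84.5). Hsd11b1, the enzyme that regenerates active glucocorticoid, read 5.15 and 4.68, and Ddit4, a stress and glucocorticoid target that restrains growth signalling, 3.9 and 4.16. Of 19 EGF and FGF receptor and feedback genes, 15 were. Fgfr1, a receptor for bFGF, read 4.38 and 4.73 on its brightest probe, Egfr, the EGF receptor, 1.70 and 2.07, Errfi1, an inhibitor induced by EGF, 3.98 and 3.94, and Dusp6, a phosphatase induced by ERK signalling, 3.41 and 3.29. Spheres grown without these factors were not analysed here, so the values are levels and not responses.

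Cell cycle genes and their inhibitors were both detected. Of 29 proliferation genes, 24 were well above background on both arrays and 18 stood above the sensory receptor level, with a median percentile of 69.3. H4c4, a histone, read 5.53 and 5.44, Pcna, the clamp of DNA polymerase, 3.01 and 2.70, and Mcm6, a helicase subunit, 1.89 and 1.78. All 18 CDK inhibitors and p53 targets were well above background on both, with a median percentile of 80.9. Mdm2, which degrades p53, read 3.98 and 4.18, Cdkn1a, known as p21, 4.0 and 3.71, and Cdkn2a, the p16 and p19 locus, 3.03 and 2.97 on its brighter probe with another at -1.42. Immediate early genes stood at a median percentile of 64.4, with Jund, a subunit of AP-1, at 3.42 and 2.98 and Jun at 2.54 and 2.35.

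Lipid and hypoxia genes lay in between. Of 18 genes of cholesterol and fatty acid synthesis, 17 were well above background on both arrays, with a median percentile of 76.8 and Scd2, a fatty acid desaturase, at 3.51 and 3.57. Of 14 hypoxia response genes 11 were, with Slc2a1, the glucose transporter GLUT1, at 2.66 and 2.37. Of 28 mesenchymal transcription factors 23 were, and 14 stood above the sensory receptor level. The brightest of them, Nfix, read 2.05 and 2.63, with another probe at -1.08. Id1, an inhibitor of differentiation factors, read 1.99 and 1.41.

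The 2 arrays did not differ equally across the lists. Over the 12322 genes well above background on both, the median of array 1 minus array 2 was 0.16, with 7800 genes higher on array 1 and 4522 on array 2. Of 24 keratin and junction genes, 21 were higher on array 1, with a median difference of 0.66, and all 5 mesothelial genes, keratins among them, were too (0.81). Of 8 class II genes 6 were (0.74). In the other direction, 16 of 20 macrophage genes were higher on array 2 (median -0.48), and 7 of 11 T lineage genes (-0.19). Fibroblast genes were nearly even, 14 higher on array 1 and 12 on array 2 (0.05), as were sensory receptors, 159 and 161 (-0.01). All 38 oxidative phosphorylation genes and 81 of 82 ribosomal genes were higher on array 1, by medians of 0.39 and 0.33. Which array a list favours depends on the scaling: with arrays centred on their medians the median over all genes was -0.51, all 38 oxidative phosphorylation genes and 80 of 82 ribosomal genes were higher on array 2, and the epithelial genes were split 12 and 12. Relative to the median of all genes the contrast between lists kept its direction for epithelial genes (0.42 to 0.55 across 5 scalings and sources of values) and for macrophage genes (-0.64 to -0.34), whereas fibroblast genes went from -0.20 to 0.13. With 1 sample on each side these are differences between 2 arrays, and whether they come from the spheres or from the arrays cannot be told apart.

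**Figure D5:**
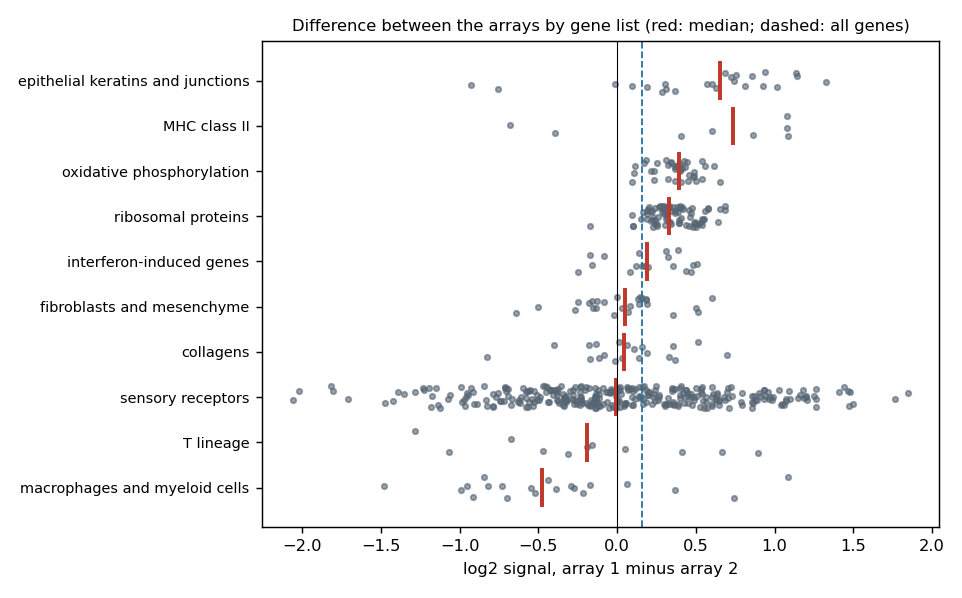
Log2 signal on array 1 minus array 2 for each gene well above background on both arrays, by gene list, with the list's median as a red bar, the line of no difference and the median of all genes (0.16, dashed). Epithelial genes lie mostly right of the dashed line with a median of 0.66, macrophage genes mostly left of 0 with a median of -0.48, and ribosomal genes in a narrow band around 0.33, a direction that turns with arrays centred on their medians (-0.34).

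Among genes well above background on both arrays, the greatest differences between the arrays were in genes of middle rank, at percentiles 38.9 to 73.7. Among genes higher on array 2, Grk4, a receptor kinase, read -1.0 and 1.64, a difference of -2.64 (array 1 minus array 2). Entpd8, an ectonucleotidase, read -0.75 and 1.68, and Adamts3, a procollagen peptidase, -2.29 and -0.04. The next 5 in that direction were Luzp2, Chrna1, Grik2, Nlrp9a and Xlr5b, with differences of -2.18 to -2.07. Among genes higher on array 1, Defa38, a defensin, read 0.37 and -1.79, Zc3hc1, a nuclear protein, 0.31 and -1.83, and Dand5, a secreted antagonist of TGF-beta family ligands, 0.42 and -1.72. They were followed by Rwdd4a, Zswim1, Hpdl, Igsf5 and Focad, with differences of 1.91 to 2.06. The highest mean among these 16 genes was 0.46, that of Entpd8.

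Only part of the array could be named. Of 55665 probes with at least 1 spot that was not flagged, 28020 (50.3%) matched a gene symbol. Of the named probes with a value on both arrays 55.9% were well above background on both, of the other unmatched transcripts 42.03%, and of the probes for genomic regions 29.9%. Among the 500 brightest probes, 214 were named, 272 were unmatched transcripts and 14 lay in genomic regions, so the ranking of genes covers less than all of the brightest signals. The brightest probe of the array, at 10.67 and 11.20, was an unmatched one.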

How the data were processed

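Messenger RNA of adult thymospheres was measured on 2 1-colour Agilent arrays, grouped by sample title. Per the file headers, the deposited intensity values come from Agilent Feature Extraction 10.7.3.1, the version also in the submitters' processing notes, which subtracted background and detrended each array on its own, without normalizing arrays to each other. The deposited value table also holds intensity, on a linear scale. The authors' steps behind that table are not stated in the labels used, and it served only as an alternative.

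Control spots and spots flagged as outliers were left out. The processed signal was divided by its 75th percentile over an array's non-control spots and log2 transformed. Spots of 1 probe were averaged, and a probe counted as well above background if all its spots were. Accessions without versions matched 28020 probes to 21151 symbols of RefSeq (GRCm38.p6, for names and promoters), of which 20453 had a value on both arrays. A gene is represented by its brightest probe, those well above background on both arrays first. The deposited files name probes by the array's design, and its header's build was not used for coordinates. With 1 group no test was made and no p-value is given. Calculations used Python 3.11.15, pandas 2.3.3, R 4.3.3 and limma 3.58.1 (normexp alternative), and were tested on simulated data.

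The genes named are the 40 of highest mean signal with proper symbols, the 4 brightest of each of 47 fixed lists and the first 4 of each cell type list, the 8 of greatest difference between the arrays in each direction, and 16 chosen whatever their values. Members outside this rule (Lcn2, Saa3, Cck, Rpl10l, Rpl7l1, Rpl39l, Rpl3l, Tcf21, Ccl25, Tyrobp, Krt15, Jup, Elf3, Ocln, Evpl, Esrp1, Esrp2, Grhl2 and the sex-linked genes) were picked with their values known. Not every gene under the rule is printed. The lists (855 genes, 844 on the array) and the samples described were chosen with earlier results of these data known. Alternatives were normexp background correction with an offset of 50 on the median signal (the mean signal that was planned is not a column used here), quantile normalization, centring on the median, the deposited table, outlier spots kept, other filters on dim probes, the mean of a gene's probes, and each array alone. The dimmest probe, leaving out genes with probes over 3 apart, and the sensory receptor level were added after seeing the data.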

Additional observations from a re-analysis of the deposited data

How the results depend on the processing

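The number of arrays, 2, limits the precision, and dim signals most of all. No paired analysis was possible because only 1 group was described and no test was made. Pearson's r over all probes, 0.925, was 0.976 with normexp, 0.934 with quantile normalization, 0.971 in the deposited table, 0.923 with outlier spots kept and 0.962 with only probes well above background on both arrays. The median absolute difference, 0.65, was 0.369, 0.501, 0.29, 0.657 and 0.381 under the same alternatives, and 0.714 with arrays centred on their median. The 24206 probes well above background on both arrays became 37412 with either array, and ran from 24593 to 37025 (array 1 alone) with 1 array left out. With only probes well above background on both arrays, the median percentiles of the fibroblast, epithelial, macrophage, T lineage, endothelial and ribosomal lists were 89.3, 74.5, 58.6, 28.4, 47.8 and 99.1. With the mean of a gene's probes those of fibroblasts, epithelia, thymic epithelium, the T lineage, endothelium and ribosomal proteins were 94.4, 86.7, 51.0, 35.2, 60.8 and 99.3. With the dimmest probe they were 94.9 for fibroblasts, 62.6 for macrophages, 32.5 for the T lineage (6 genes well above background on both arrays in place of 11), 63.8 for endothelium and 99.2 for ribosomal proteins. With genes whose probes disagree left out they were 93.9 for fibroblasts, 58.1 for endothelium and 99.6 for ribosomal proteins. The thymic epithelium list stood at 40.02 with normexp, 53.4 in the deposited table and 50.4 with outlier spots kept, and endothelium at 56.3 with normexp and 52.8 with outlier spots kept. With 1 array left out, macrophages ran from 67.9 to 71.9 and the T lineage from 34.6 to 45.5. Of the top 40 genes, 23 were kept with the mean of probes, 19 with the dimmest probe and 23 with disagreeing genes left out. Sensory receptor probes well above background on array 2 were 29.6% with outlier spots kept. The cause of these shifts was not tested, apart from the filters, which change the genes ranked. The order of the fibroblast, epithelial, macrophage and T lineage medians was the same under each of these alternatives.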

Other observations

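Tubulin genes, the subunits of microtubules, were well above background on both arrays in 12 of 12 cases, with a median percentile of 96.3. Tuba1b read 5.68 and 5.34, Tuba1c 5.29 and 4.76, and all 12 were higher on array 1. Among sex-linked genes, picked after their values were seen, Xist, the RNA that silences an X chromosome in females, was well above background on both arrays. Its values, -1.89 and -0.29, both lay below the sensory receptor level of -0.20. The Y-linked genes Ddx3y (-4.85 and -4.32), Uty, Kdm5d and Eif2s3y were not well above background on either array. The labels used here do not name the sex of the mice.

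The spots flagged as outliers on array 2 were spread unevenly over the range of signal. Of 2756, 2610 were flagged as non-uniform. The brightest 10% of spots held 791, the next 10% 1392 and the next 456, whereas the 500 brightest spots held 0. Of the genes on the lists that lost their value in this way, Tyrobp, an adaptor of myeloid receptors, read 2.39 and 3.28 with flagged spots kept, and Krt15, a basal keratin, 0.42 and 1.38.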
